A study of Mus musculus with 18 samples.

Results

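The E2F, pocket protein and cyclin E genes were taken by name: Ccne1 and Ccne2, E2f1, E2f2 and E2f3, E2f7 and E2f8, and Rb1, Rbl1 and Rbl2. All 10 genes were measured, by 21 of the 45101 probe sets on the array, among 18193 genes in all. RNA came from primary hepatocytes, the parenchymal cells of the liver, of male C57BL/6N mice aged 8 to 12 weeks, with the cells of an experiment drawn from 1 animal or from a pool of up to 3. Collagen I coated the dishes; after attachment the medium held dexamethasone and no serum, and it was replaced by a starvation medium before stimulation. Stimulated dishes received interleukin-6 (IL-6, an acute-phase cytokine) at 40 ng/ml from 0 h, and hepatocyte growth factor (HGF, a mitogen for these cells) at 40 ng/ml in addition from 4 h.

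Unstimulated control was measured once before the start, at -5 h, and on 5 further arrays, at 0, 4, 8, 12 and 24 h. IL-6 was measured on 4 arrays, hourly from 1 to 4 h. IL-6 plus HGF took up 8 arrays, hourly from 5 to 10 h and then at 12 and 24 h. Each condition and hour was 1 array, so hours of a stimulus stood in for replicates. The spread behind each p-value is that among dishes taken at different hours. It may hold technical variation and also change over time that a fit does not describe. HGF without IL-6, and IL-6 without HGF after 4 h, were not analysed here, so HGF and longer IL-6 cannot be told apart. In such bulk RNA, fewer cells with a transcript and less of it per cell cannot be told apart either.

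E2F proteins are transcription factors that control genes of DNA synthesis and the cell cycle. In resting cells the pocket proteins RB1, p107 (encoded by Rbl1) and p130 (encoded by Rbl2) bind E2Fs and repress these genes. Cyclin E with its kinase CDK2 phosphorylates the pocket proteins late in G1, which frees the activator E2Fs, and E2F7 and E2F8, which need no pocket protein, repress E2F targets later in the cycle. Adult hepatocytes are quiescent and re-enter the cycle after loss of liver tissue, and several of these genes are themselves E2F targets.

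RefSeq (build GRCm38.p6) held a promoter window, 250 bases before to 50 after the start site, for 8 of the 10 genes, with 10 windows in all. Both strands were searched for the E2F words TTTCCCGC, TTTCGCGC, TTTGCCGC and TTTGGCGC, and for the words TTTGAA and TTCGAA of the cell cycle homology region (CHR), the element bound by the MuvB complex that p107 and p130 join. An E2F word lay in 4 of the 10 windows (E2f2, E2f7, Rbl1 and the first of 2 for E2f3), against 2.26% of 32851 RefSeq promoters. A CHR word also lay in 4 (E2f8, Rbl2, the second window of E2f2 and the first of E2f3), against 19.2% of promoters, and 0 of the words of one kind overlapped the other. In E2f2 the E2F word began 40 bases after the start site. A match describes letters and is not evidence of binding. Windows follow annotated start sites, and which of them hepatocytes use was not tested. The second window of E2f2 (chr4:136180532-136180831, plus strand) lies downstream of its first (chr4:136172024-136172323). A window with no word, such as that of E2f1, does not show that the gene lacks one at another start. The stretches of 100 bases around the words are shown for E2f7, Rbl1 and E2f8, which were higher at 24 h, and for E2f3, which was not called. Each is written 5′ to 3′ on the gene's strand, with the matched word, or its reverse complement, in capitals. E2f7 (chr10:110745189-110745288, plus strand) has an E2F word, Rbl1 (chr2:157204535-157204634, minus strand) has one that ends 11 bases before the start site, E2f3 (chr13:29986064-29986163, minus strand) has a CHR word and then an E2F word, and E2f8 (chr7:48881597-48881696, minus strand) has a CHR word.
E2f7: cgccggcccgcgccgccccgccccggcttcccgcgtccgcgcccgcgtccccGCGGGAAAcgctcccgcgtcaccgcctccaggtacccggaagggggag
Rbl1: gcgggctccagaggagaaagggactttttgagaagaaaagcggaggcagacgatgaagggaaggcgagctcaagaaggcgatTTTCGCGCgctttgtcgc
E2f3: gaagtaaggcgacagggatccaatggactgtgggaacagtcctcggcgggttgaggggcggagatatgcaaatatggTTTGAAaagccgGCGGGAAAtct
E2f8: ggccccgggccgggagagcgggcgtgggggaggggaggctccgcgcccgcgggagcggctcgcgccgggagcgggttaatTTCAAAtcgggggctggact

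Array medians lay between 5.47 and 5.57 log2 units. Each array's average correlation with the rest ran from 0.985 to 0.994, lowest for both 24 h arrays, followed by IL-6 plus HGF at 10 h. All 7 hepatocyte markers, among them Alb with a mean log2 level of 14.83, were measured. Their mean log2 level was lower at later hours, 12.58 at 0 h and 11.00 at 24 h in control, and 12.00 at 5 h and 10.33 at 24 h under IL-6 plus HGF. The long nuclear RNAs, Malat1 and Neat1, varied between arrays, with means from 8.56 (IL-6 plus HGF at 6 h) to 12.01 (IL-6 plus HGF at 10 h).

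The largest change of these genes was a rise at 24 h. Against the earlier hours of the same stimulus (4 to 12 h), 9 of the 10 genes were higher at 24 h, by 1.34-fold (E2f2) to 3.90-fold (Ccne2), and E2f3 was not called. Over all genes, 11.3% were higher and 8.34% lower in this comparison of 2 arrays with 10. The median log2 difference of the 10 genes was 0.66, against -0.05 over all genes. The split of all calls depended on scaling: 57.5% of called genes were higher with the values as deposited, 70.4% after centring each array on its median, and 49.0% after quantile normalization, while all 10 members kept their sign under both.

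**Figure D1:**
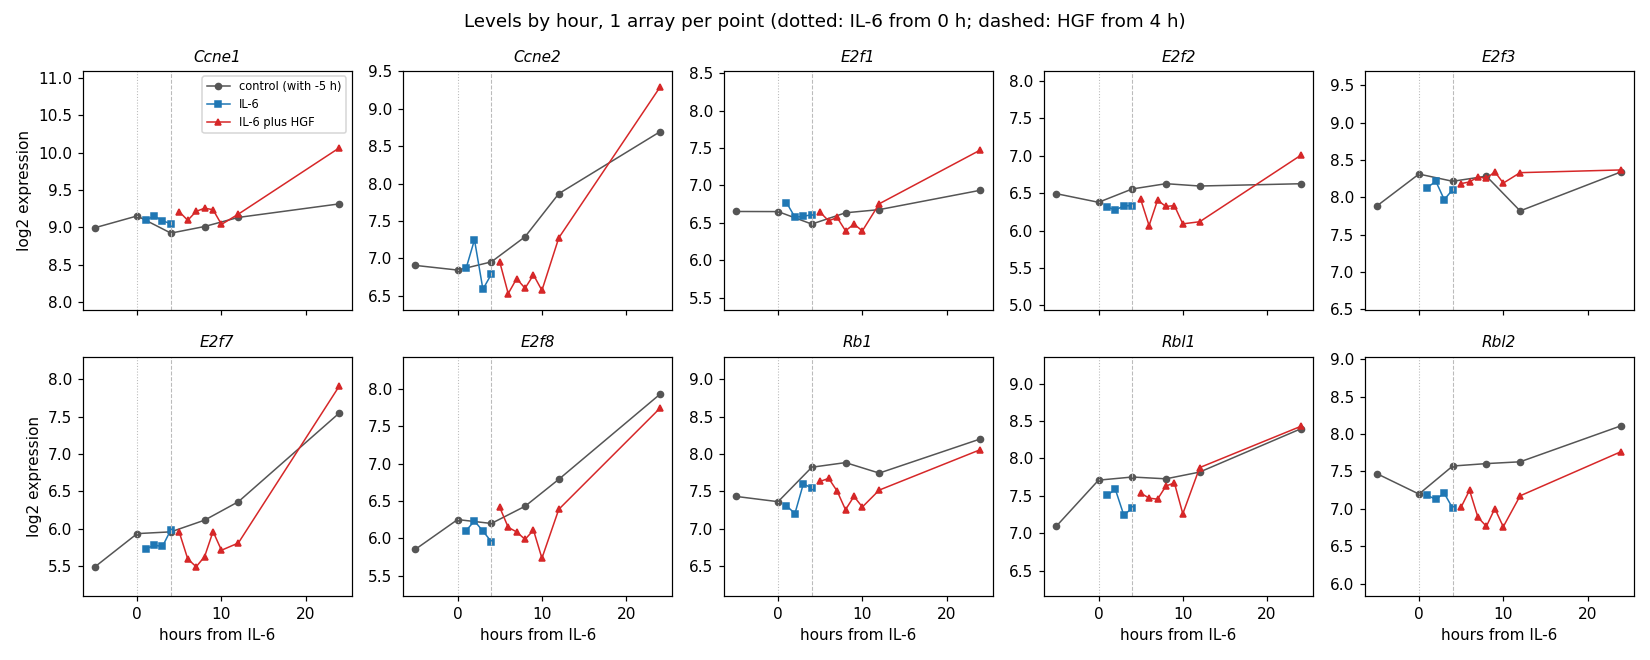
Log2 expression of each gene (vertical axis, every panel spanning the same number of log2 units) against hours from the addition of IL-6, with 1 array per point. Grey circles are controls, blue squares IL-6 and red triangles IL-6 plus HGF; Ccne2, E2f7 and E2f8 climb most by 24 h, and the Rbl2 points under IL-6 plus HGF lie below the controls at 8, 12 and 24 h.

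Cyclin E2 (Ccne2), 1 of the 2 genes for the cyclin partner of CDK2, had the widest range of the 10 genes, 2.76 log2 units. Its log2 level in control was 6.84 at 0 h, 6.95 at 4 h, 7.29 at 8 h, 7.87 at 12 h and 8.69 at 24 h. With both factors it stayed between 6.53 and 6.95 from 5 to 10 h, was 7.27 at 12 h and reached 9.29 at 24 h, the highest of all arrays. Control was thus higher at 8 and 12 h than at 4 h, while the stimulated cells had lower values than control at those hours and the higher one at 24 h. Ccne2 was 3.90-fold higher at 24 h than before (log2 difference 1.96 ± 0.26 SE, limma adjusted p = 0.000149, 2 arrays against 10).

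Cyclin E1 (Ccne1) had its 1 high value at 24 h with both factors. In control it lay between 8.92 and 9.32, with the highest value at 24 h, and with IL-6 between 9.05 and 9.15. Stimulated cells lay between 9.04 and 9.26 from 5 to 12 h of IL-6 plus HGF and at 10.07 at 24 h, above every other array. The step at 24 h was 1.53-fold (0.61 ± 0.11, limma adjusted p = 0.0017). The brightest probe set, used here, is of the kind that Affymetrix marks as able to match other transcripts, and the second probe set of Ccne1 gave a log2 difference of 0.49 in the same comparison.

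Of the activator E2Fs, E2f1 rose 1.58-fold at 24 h (0.66 ± 0.12, limma adjusted p = 0.00213). In control its level was between 6.48 and 6.68 from 0 to 12 h and 6.93 at 24 h. With IL-6 plus HGF it was between 6.39 and 6.75 from 5 to 12 h and 7.47 at 24 h, above all other arrays. The other probe sets of E2f1 gave differences of 0.48 and, for the dimmest, -0.09.

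E2f2 was at 6.63 in control at 24 h, equal to its value of 6.63 at 8 h, and at 7.01 under IL-6 plus HGF at 24 h after values of 6.07 to 6.42 before. In this probe set, the brighter one, the stimulated array alone was thus above the earlier ones. The step was 1.34-fold (0.42 ± 0.14, limma adjusted p = 0.0476) and close to the threshold: it was lost under 12 of 19 other settings, among them quantile normalization, the fit without the stimulus block and the fit without the stimulated 24 h array (0.03). Its second probe set, which was dim, gave 0.95, with 5.71 in control at 24 h after 4.66 to 5.14 from 0 to 12 h, and 5.62 under IL-6 plus HGF at 24 h after 4.33 to 4.75, so there both 24 h arrays were above the earlier ones.

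E2f3 lay between 7.82 and 8.34 in control and between 8.18 and 8.37 under IL-6 plus HGF, with no array apart at 24 h. Its log2 difference at 24 h was 0.17 ± 0.10 (limma adjusted p = 0.271), and its second probe set had the opposite sign, with -0.22.

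The atypical repressors E2f7 and E2f8 had the smallest p-values of the 10 genes at 24 h. E2f7 was at 5.94, 5.96, 6.12, 6.36 and 7.55 in control from 0 to 24 h. With IL-6 it lay between 5.73 and 5.99, and under IL-6 plus HGF between 5.49 and 5.96 from 5 to 12 h, before 7.91 at 24 h. The values of the 2 arrays at 24 h lay above all other 16. The step was 3.53-fold (1.82 ± 0.16, limma adjusted p = 8.59e-06).

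E2f8 in control was at 6.25, 6.20, 6.43, 6.79 and 7.93, likewise highest at 24 h. The stimulated cells gave 6.41 at 5 h, 5.73 at 10 h and 6.39 at 12 h and reached 7.74 at 24 h, here below the control array. The step at 24 h was 2.91-fold (1.54 ± 0.16, limma adjusted p = 2.62e-05), and the second, dimmer probe set gave 0.74. The promoter stretch of E2f7 shown above holds an E2F word and that of E2f8 a CHR word.

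Rb1, the founding pocket protein gene, rose 1.41-fold at 24 h (0.49 ± 0.11, limma adjusted p = 0.00516). Its control levels were 7.36 at 0 h, 7.82 at 4 h, 7.89 at 8 h, 7.74 at 12 h and 8.20 at 24 h. For IL-6 plus HGF the lowest value was 7.26, the median 7.51 and the highest 8.06, at 24 h. The second probe set of Rb1, at the 12.7th percentile of mean signal, had a difference of 0.02.

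Rbl1, the gene for p107, rose 1.69-fold (0.76 ± 0.12, limma adjusted p = 0.000654). Control was between 7.71 and 7.82 from 0 to 12 h and at 8.40 at 24 h, and IL-6 plus HGF was between 7.26 and 7.88 from 5 to 12 h and at 8.43 at 24 h. The levels of both stimuli at 24 h were thus 0.03 apart. Its 3 other probe sets were dim, with differences of 0.44, 0.06 and 0.02.

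Rbl2, the gene for p130, rose 1.58-fold (0.66 ± 0.12, limma adjusted p = 0.00175). Control levels were 7.20, 7.57, 7.60, 7.63 and 8.11 from 0 to 24 h. IL-6 plus HGF gave 7.02, 7.25, 6.88, 6.77, 7.00, 6.76 and 7.17 from 5 to 12 h and 7.76 at 24 h. Its second probe set gave 0.55.

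**Figure D2:**
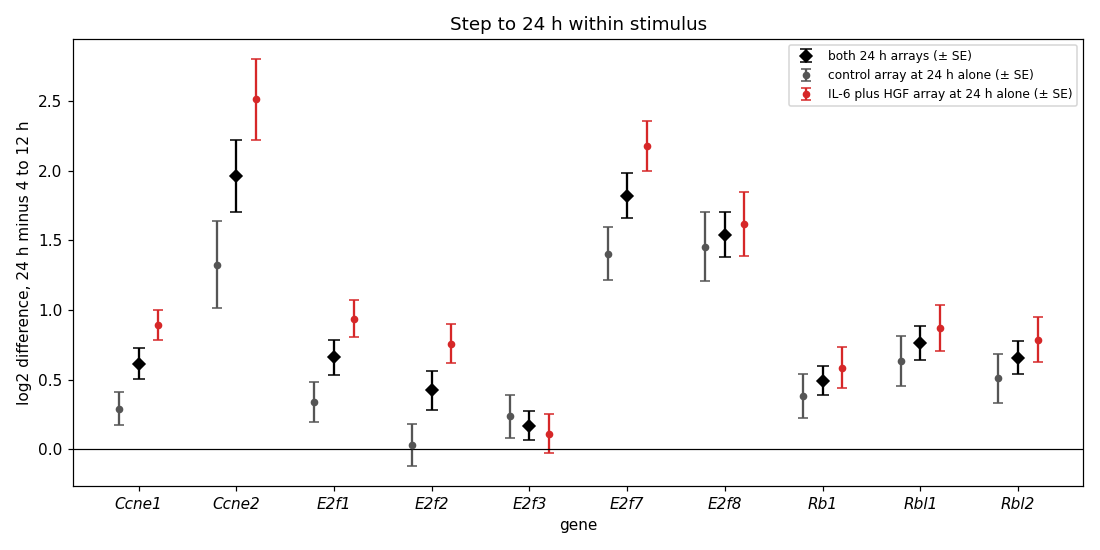
Log2 difference between 24 h and the earlier hours of 4 to 12 h, within stimulus, for the brightest probe set of each gene (horizontal axis), with its SE as bar. Black diamonds use both 24 h arrays, grey and red circles the control or the IL-6 plus HGF array at 24 h alone; E2f8 has similar values with each (1.45 and 1.62), and E2f2 is at 0.03 with the control array and at 0.76 with the other.

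The calls at 24 h leaned on the stimulated array. Without the IL-6 plus HGF array at 24 h, 3 of the 10 genes were called: Ccne2 (2.50-fold, limma adjusted p = 0.0273), E2f7 (2.65-fold, adjusted p = 0.00131) and E2f8 (2.74-fold, adjusted p = 0.00453). In that fit 3.89% of all genes were higher and 1.71% lower. Without the control array at 24 h, 9 were called, all but E2f3, against 7.52% of all genes higher and 3.58% lower. All 10 differences were positive with either array. The difference between the 2 steps, IL-6 plus HGF minus control, was positive for 9 genes, with Ccne2 at 1.19 ± 0.42, E2f7 at 0.77 ± 0.26, E2f2 at 0.72 ± 0.21, E2f1 at 0.60 ± 0.20 and Ccne1 at 0.60 ± 0.16 in log2 units. By limma 0 of the 10 passed after adjustment (lowest adjusted p = 0.541, for Ccne1), 5 of them had an unadjusted p under 0.05, as did 792 of all 18193 genes, and of all genes 0.0275% were called higher and 0.022% lower. This test of the difference was added after the values by hour had been seen.

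Cell type markers also moved at 24 h, compared here with the hours from 4 to 12 h. The mean log2 level of the hepatocyte markers at 24 h, 11.00 in control and 10.33 under IL-6 plus HGF, lay below the earlier ranges of 11.88 to 12.24 and 11.24 to 12.00, and 5 of the 7 markers were called lower. Of the 11 Kupffer cell markers 1 was called higher and 3 lower, and of the 6 endothelial markers 1 higher. Of the 8 stellate cell markers 2 were called higher and 2 lower. Of the 4 cholangiocyte markers 1 was called higher, and of the 4 lymphocyte markers 0 either way. Over all genes, 11.3% were higher and 8.34% lower in this comparison. Mean levels at 24 h, control first, were 6.79 and 6.73 for Kupffer cells, 6.96 and 6.31 for endothelium, 6.70 and 6.43 for stellate cells, 6.94 and 7.04 for cholangiocytes and 5.27 and 5.44 for lymphocytes. The earlier values of these lists lay in the ranges 7.22 to 7.31 and 6.76 to 7.16, 6.78 to 6.93 and 6.42 to 7.10, 6.44 to 6.52 and 6.37 to 6.48, 6.40 to 6.58 and 6.58 to 6.90, and 5.46 to 5.53 and 5.38 to 5.65. In control, the endothelial, stellate cell and cholangiocyte means at 24 h were thus above their values of 4 to 12 h. The endothelial control mean was higher still at 0 h, at 7.38. Under IL-6 plus HGF the cholangiocyte mean at 24 h was above its earlier values. Averaged over both stimuli, though, 1 of the 4 cholangiocyte markers was higher at 24 h and 3 were lower. The higher one was Krt19, at 9.38 in control and 9.13 under IL-6 plus HGF at 24 h. Their part in the rise was not tested.

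At the 3 hours measured under both conditions (8, 12 and 24 h), Rbl2 was lower with IL-6 plus HGF than in control, and it was the 1 gene of the 10 that passed. Its differences were -0.84, -0.46 and -0.35 in the order of the hours, so all 3 pairs were lower. Rbl2 was 1.46-fold lower (-0.55 ± 0.11, limma with hour as a block, adjusted p = 0.0303, 3 pairs), and its second probe set gave -0.44. Over all genes 6.46% were lower and 2.53% higher. The call was lost without the 8 h pair (-0.40, adjusted p = 0.0930), without the 12 h pair (-0.59, adjusted p = 0.0770) and without the block (adjusted p = 0.453).

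The other pocket protein genes were not called at the matched hours. Rb1 was lower in all 3 pairs, by 0.63, 0.23 and 0.14, and did not pass (-0.33 ± 0.11, limma adjusted p = 0.12). Rbl1 had pair differences of -0.10, 0.06 and 0.03, with a mean of -0.0011 that was 0.06 after quantile normalization. E2f8 was lower in all 3 pairs, by 0.44, 0.40 and 0.19, and missed the threshold (-0.34 ± 0.08, limma adjusted p = 0.0529). Ccne1 was higher in all 3 pairs, by 0.25, 0.04 and 0.75, and did not pass (0.35 ± 0.14, limma adjusted p = 0.176). Its second probe set gave 0.07, -0.12 and 0.50, so there the 12 h pair was lower.

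For 3 genes the sign turned between 12 and 24 h. Ccne2 under IL-6 plus HGF was 0.69 below control at 8 h, 0.59 below at 12 h and 0.60 above at 24 h. E2f7 was 0.49 and 0.55 below and then 0.36 above. E2f2 was 0.30 and 0.48 below and then 0.38 above in its brighter probe set, while the dim one gave -0.45, -0.34 and -0.09, with no turn. None of the 3 passed over all hours (adjusted p = 0.598, 0.477 and 0.652 by limma). Without the 24 h pair, Ccne2 (-0.64, limma adjusted p = 0.0229), E2f7 (-0.52, adjusted p = 0.0401) and Rbl2 (-0.65, adjusted p = 0.0418) were called lower, against 3.03% of all genes lower and 1.14% higher, in a fit of 2 pairs. E2f1 had differences of -0.24, 0.08 and 0.54, and E2f3 of -0.03, 0.51 and 0.02, the 0.51 coming at the hour of the lowest control value of E2f3.

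**Figure D3:**
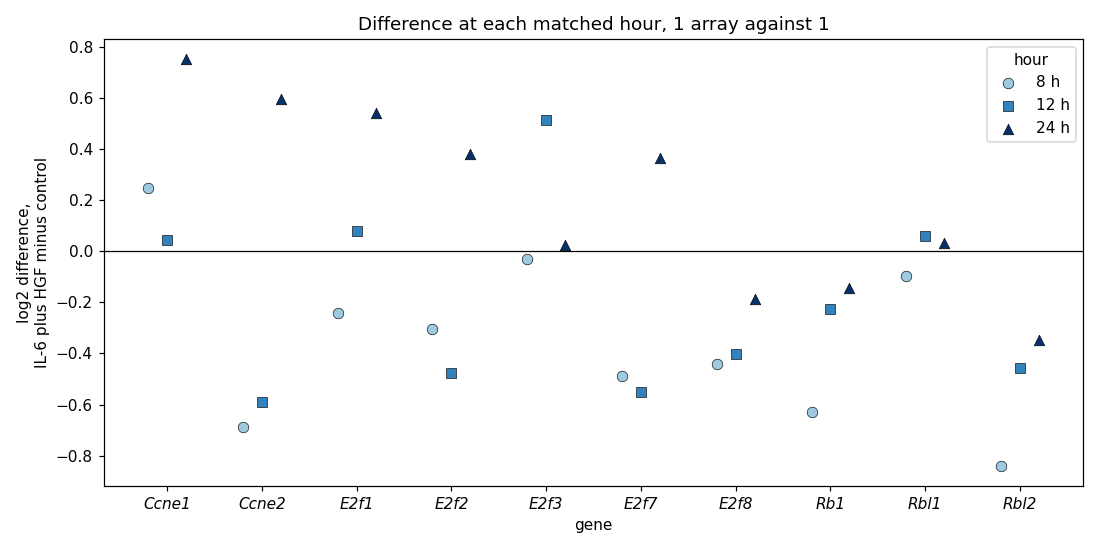
Log2 difference between IL-6 plus HGF and control for the brightest probe set of each gene (horizontal axis) at 8, 12 and 24 h, 1 array against 1 array per point. Rbl2, Rb1 and E2f8 are below 0 at all 3 hours and Ccne1 is above 0, while Ccne2, E2f7 and E2f2 are below 0 at 8 and 12 h and above it at 24 h.

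The hours before 24 h were therefore also compared by themselves, a comparison added after the values had been seen: the 4 stimulated arrays of 8, 9, 10 and 12 h against 2 controls, of 8 and 12 h. Rbl2 was 1.61-fold lower (-0.69 ± 0.13, limma adjusted p = 0.0229), with values of 6.76 to 7.17 against 7.60 and 7.63, so the groups did not overlap. Of all genes 3.63% were lower and 1.19% higher. The others did not pass: Rb1 at -0.44 ± 0.10 (adjusted p = 0.0530), E2f7 at -0.46 ± 0.12 (0.0706), E2f2 at -0.40 ± 0.10 (0.0708), Ccne2 at -0.77 ± 0.22 (0.0968) and E2f8 at -0.55 ± 0.18 (0.131), all by limma. With Rbl2, 6 of the 10 genes had every stimulated array from 8 to 12 h below both controls and 0 had every one above, against 17.7% and 14.2% of all genes.

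Nuclear RNAs and hepatocyte markers differed between the same arrays. The mean of Malat1 and Neat1 was 9.06, 9.70 and 8.96 in control at 8, 12 and 24 h and 10.98, 9.69 and 9.62 under IL-6 plus HGF, and 1 of the 2 was called higher at the matched hours. The hepatocyte marker mean was 12.07, 11.88 and 11.00 in control and 11.76, 11.24 and 10.33 under IL-6 plus HGF, with 3 of the 7 called lower. At the matched hours 2.53% of all genes were called higher and 6.46% lower. Their part in the Rbl2 difference was not tested.

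IL-6 by itself, from 1 to 4 h, gave no call among these genes. By limma 0 of 10 passed after adjustment and 0 had an unadjusted p under 0.05. Of all genes 0.022% were higher and 0% lower (656 had an unadjusted p under 0.05). The spread in this fit also came from the later cells, which hold the 24 h arrays. The SE was thus 0.57 for Ccne2 and 0.50 for E2f7, and the fit could miss an early response. A fit of 6 arrays with hours as covariate called 0 of the 10, and 9 genes over all. The differences from the controls at 0 and 4 h were negative for 8 genes and had a median of -0.14. The largest in size was that of Rbl1, at -0.31 ± 0.24 (limma adjusted p = 1.00), with IL-6 values of 7.51, 7.58, 7.24 and 7.34 against 7.71 and 7.75. With IL-6, Rbl2 was at 7.18, 7.13, 7.21 and 7.01, against 7.20 and 7.57 in control. E2f2 lay between 6.28 and 6.34, below both controls (6.38 and 6.56), and Rb1 between 7.20 and 7.60, which overlapped its controls. The share of all genes with every IL-6 array below both controls, as for E2f2 and Rbl1, was not counted. The IL-6 ranges were 6.59 to 7.25 for Ccne2, 6.57 to 6.77 for E2f1, 7.97 to 8.21 for E2f3 and 5.96 to 6.23 for E2f8. At 4 h, where 1 array of each condition exists, Rbl2 was 0.56 lower with IL-6, at 7.01 against 7.57, and Rbl1 was 0.42 lower. Other probe sets gave smaller differences at 4 h, of -0.15 for Rbl2 and of -0.03, -0.15 and -0.03 for the dim ones of Rbl1. The mean of Malat1 and Neat1 at 4 h was 8.87 in control and 11.00 with IL-6. The part of these nuclear RNAs in the differences at 4 h was not tested.

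Slopes over the time course summarized the same values, with arrays shared with the comparisons above. Under IL-6 plus HGF (8 arrays, 5 to 24 h), 5 of the 10 genes rose per doubling of the hours, against 6.27% of all genes rising and 4.84% falling. They were Ccne2 (1.10 ± 0.23 log2 per doubling, limma adjusted p = 0.0121), E2f7 (0.91 ± 0.21, adjusted p = 0.0208), Rbl1 (0.41 ± 0.10, adjusted p = 0.0285), Ccne1 (0.36 ± 0.10, adjusted p = 0.0467) and E2f1, which barely passed (0.39 ± 0.11, adjusted p = 0.04998). E2f8 (0.62 ± 0.20, adjusted p = 0.0785) and Rbl2 (0.30 ± 0.12, adjusted p = 0.158) did not. The fit of all 8 arrays called 2020 of all genes. Leaving out the 6 or the 7 h array left 2 of the 10 called, with 1564 and 1588 called over all genes. Leaving out the 8, 9 or 12 h array left 3, with 1630, 1687 and 1762 over all genes. Without the 24 h array 0 of 10 were called, and 244 over all genes. The slope of Ccne2 was then 0.19 and that of E2f7 0.03, so these slopes rest on that array.

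In control (5 arrays, 0 to 24 h) 0 of the 10 passed by limma and 5 had an unadjusted p under 0.05, as did 4077 of all 18193 genes (22.4%). After adjustment 2.14% of all genes rose and 1.47% fell. The slopes with the lowest adjusted p were those of Rbl2 (0.17 ± 0.04, adjusted p = 0.0589), Rb1 (0.16 ± 0.04, adjusted p = 0.0720) and Ccne2 (0.37 ± 0.09, adjusted p = 0.0786). With hours in place of their logarithm, 5 of 10 were called, against 1685 of all 18193 genes. Without the 0 h array 2 were called, Ccne2 (0.77) and E2f8 (0.75), against 295 of all genes. The difference between the slopes of both conditions passed for 0 of 10 genes by limma, with 0 at an unadjusted p under 0.05. Of all genes 0.0385% had a higher and 0.0605% a lower slope under IL-6 plus HGF. The differences with the largest size were 0.41 ± 0.30 for Ccne2 and 0.30 ± 0.29 for E2f7, and both turned negative without the 24 h array of IL-6 plus HGF.

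Before 0 h, between the controls at -5 h and 0 h with 1 array each, Rbl1 went from 7.09 to 7.71, E2f7 from 5.49 to 5.94, E2f3 from 7.88 to 8.31 and E2f8 from 5.85 to 6.25, while Rbl2 went from 7.47 to 7.20. With 1 array at each hour these differences have no replicate check.

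The wider pathway was described by 3 lists of genes. At 24 h, 11.3% of all genes were higher and 8.34% lower. Of the E2F targets of DNA synthesis and S phase, 29 of 32 measured genes were higher and 0 lower (median log2 difference 0.99). Among them were Atad2, a chromatin ATPase (1.35 ± 0.09, limma adjusted p = 1.33e-06), Pola1, the catalytic subunit of DNA polymerase alpha (1.07 ± 0.09, adjusted p = 4.91e-06), and Rrm1, the large subunit of ribonucleotide reductase (1.42 ± 0.13, adjusted p = 1.24e-05). With the control array at 24 h alone the median difference of the 32 was 0.87, and with the IL-6 plus HGF array alone 1.10. At the matched hours 1 of the 32 targets was called lower and 0 higher, against 6.46% and 2.53% of all genes: Tk1, thymidine kinase, was 1.70-fold lower under IL-6 plus HGF (-0.76 ± 0.13, limma adjusted p = 0.0173).

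Of the E2F partners and G1 kinases with their cyclins and inhibitors, 12 of 20 were higher and 1 lower at 24 h (median 0.55). The shares over all genes were 11.3% higher and 8.34% lower. The kinase inhibitor gene Cdkn2c rose by 1.27 ± 0.10 (limma adjusted p = 3.61e-06), Ccnd1 by 1.57 ± 0.15 (adjusted p = 1.36e-05) and Ccnd2 by 1.14 ± 0.13 (adjusted p = 4.21e-05), the last 2 encoding D-type cyclins, which activate the kinases that first phosphorylate pocket proteins. E2f4, the E2F that binds p130 in resting cells, was the lower one, by 1.32-fold (-0.40 ± 0.09, limma adjusted p = 0.00583). At the matched hours 1 of the 20 was called higher and 1 lower, against 2.53% and 6.46% of all genes: E2f5 was higher (0.37 ± 0.07, adjusted p = 0.0305) and E2f6, a repressor that binds no pocket protein, was lower (-0.34 ± 0.07, adjusted p = 0.0416) under IL-6 plus HGF. The median difference of the 20 at 24 h was 0.48 with the control array alone and 0.59 with the other alone.

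The MuvB complex with MYB and FOXM1 genes had a median difference of 0.56 at 24 h. Against 11.3% of all genes higher and 8.34% lower, 5 of the 9 were higher and 0 lower. They were Mybl2, the B-MYB gene (1.53 ± 0.13, limma adjusted p = 7.1e-06), Lin54, whose product binds the CHR (1.02 ± 0.13, adjusted p = 7.97e-05), Lin9 (1.00 ± 0.16, adjusted p = 0.000786), Foxm1 (0.66 ± 0.13, adjusted p = 0.00242) and Rbbp4 (0.56 ± 0.10, adjusted p = 0.00139). The median difference of the 9 was 0.48 with the control array at 24 h alone and 0.63 with the other alone. None of the 9 was called at the matched hours by limma, with 0 at an unadjusted p under 0.05.

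**Figure D4:**
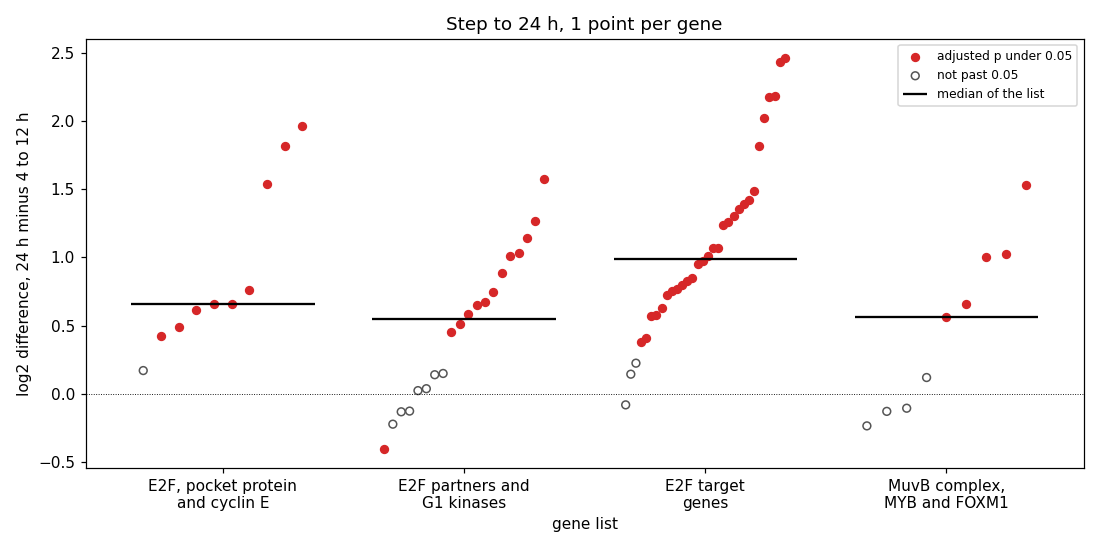
Log2 difference between 24 h and 4 to 12 h for each gene (1 point) of 4 lists, ordered by value within a list, with the list's median as a black line. Filled red points passed an adjusted p of 0.05: 9 of 10, 13 of 20 (1 of them lower), 29 of 32 and 5 of 9. Of all genes 11.3% were called higher and 8.34% lower.

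With both factors the slopes of 16 of 32 targets, 8 of 20 partners and 5 of 9 MuvB, MYB and FOXM1 genes rose and 0 fell, against 6.27% and 4.84% of all genes. Gins1 (0.40 ± 0.06), Mcm10 (0.71 ± 0.11) and Ccna2, the cyclin A2 gene (1.20 ± 0.19), had the smallest p of the targets, at limma adjusted p of 0.00235, 0.00304 and 0.00336. Of the partners, Cks1b (0.46 ± 0.08), Tfdp1 (0.40 ± 0.08), which encodes a dimer partner of E2Fs, and Ccnd2 (0.52 ± 0.11) had the smallest, at 0.00524, 0.00845 and 0.0109. In control, the partners Tfdp2 (0.21 ± 0.03), Cks1b (0.30 ± 0.05) and Cdkn2d (0.37 ± 0.06) rose, E2f4 fell by 0.16 per doubling, and the targets Melk (0.67 ± 0.12) and Ccna2 (0.73 ± 0.14) rose, with limma adjusted p between 0.0224 and 0.0429. These were 3 of 20 partners rising and 1 falling and 2 of 32 targets rising, against 2.14% of all genes rising and 1.47% falling. For IL-6 at 1 to 4 h, and for the difference of slopes, 0 genes of the 3 lists were called by limma, with 2 and 1 at an unadjusted p under 0.05.

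The genes whose pattern over the 18 arrays was most like that of the 4 members with the widest range were found by Pearson correlation, given as a description, since the arrays share the 2 high values at 24 h. For Ccne2 they were Dut (0.979), which encodes dUTPase, Gmnn (0.969), which encodes the replication licensing inhibitor geminin, and Rad51ap1 (0.968), with correlations of 0.886, 0.904 and 0.879 over the 16 arrays before 24 h. For E2f7 they were Slfn9 (0.972), Ercc6l (0.970) and Blm (0.968), which encodes a DNA helicase, at 0.726, 0.815 and 0.765 before 24 h. For E2f8 they were Tk1 (0.973), Fam72a (0.972) and Rfc4 (0.972), a subunit of the clamp loader, at 0.866, 0.848 and 0.869 before 24 h. For Rbl2 they were Acot1 (0.954), a fatty acyl-CoA thioesterase, Smarca2 (0.949), a SWI/SNF ATPase, and Vps26a (0.938), a retromer subunit, at 0.941, 0.915 and 0.882 before 24 h.

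Among the members, Ccne2, E2f7 and E2f8 were the most alike, with pairwise correlations of 0.95 over 18 arrays and of 0.69 (Ccne2 with E2f7), 0.82 (Ccne2 with E2f8) and 0.72 (E2f7 with E2f8) over the 16 arrays before 24 h. Rb1 and Rbl2 correlated at 0.84, and at 0.68 before 24 h. Ccne1 and E2f1 correlated at 0.82 over 18 arrays and at -0.03 before 24 h, so their likeness rested on the 24 h arrays.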

How the data were processed

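Total RNA of 18 hepatocyte dishes was biotin-labelled and hybridised to 1-colour Affymetrix arrays, per the labels' protocols. Deposited values ran from 2.09 to 15.05 and were read as log2 signals on that ground, with the authors' summarization and normalization not given in the sources used here. After sorting, no array departed from the mean distribution by more than 0.118. The values were used with no further scaling and no filter, and 0 columns were left over.

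Gene symbols were those of RefSeq for 34741 probe sets, matched by the Entrez identifier in the platform annotation. For 204 the symbol of the annotation was kept. A gene was represented by its brightest probe set on average, which gave 18193 genes. Each comparison was fitted with limma 3.58.1 (R 4.3.3, lmFit and eBayes); p-values were adjusted by Benjamini-Hochberg over the whole gene table, and calls were made under 0.05; differences are log2 units with SE. IL-6 against control used 17 arrays in 4 cells, matched hours 6 arrays with hour as a block (2 residual degrees of freedom), and 24 h against earlier hours 12 arrays with stimulus as a block. The fits were run on simulated data with independent noise between arrays, which checks the code and not the use of hours as replicates. Precision is limited by the number of arrays.

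The members and lists were chosen with earlier results of these data known. Members were named with a difference of their own where they passed or reached 0.3 log2, and up to 3 passing genes per list by smallest p; the single lower or otherwise few passing list genes were also named, after their values were seen, as were differences of other members. Alternatives were other scalings, a filter on the lowest 40% of genes, robust eBayes with an intensity trend, probe sets averaged per gene, a size of at least 0.5, other hours and blocks, and each array left out.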

Additional observations from a re-analysis of the deposited data

Results flagged for a closer look

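In 10 of 30 sets of values (10 genes in 3 groups) the highest or lowest array stood apart from the rest by Dixon's ratio. The ratio is the array's gap to the nearest value over the group's range. Chance gives about 1 in 20 for replicates of 1 condition. The share over all genes was not counted, so the count shows nothing particular to these genes. The arrays of a group are different hours, so a gap can also be a step in time. Under IL-6 plus HGF the 24 h array was the high one for Ccne1 (ratio 0.788), Ccne2 (0.73), E2f1 (0.665), E2f2 (0.627), E2f7 (0.805) and E2f8 (0.661). In control the 24 h array was the high one for E2f7 (0.736) and Rbl1 (0.843). In control E2f2 was low at 0 h, at 6.38 (0.716), and E2f3 at 12 h, at 7.82 (0.757).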

How the results depend on the processing

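Precision was limited by having 1 array per condition and hour. Of the 388 values of named members under other settings, 326 kept their direction and side of the threshold, 42 lost the call, 11 gained it and 9 changed sign. At matched hours the count of called members, 1 in the report, was 2 after centring, without dim genes and with robust eBayes on an intensity trend, 0 without the hour block, and 0 to 3 when a pair was left out. The count for the slope under IL-6 plus HGF, 5 in the report, was 2 with a size of at least 0.5, 3 after centring, 2 with the mean of all probe sets, and 0 to 6 when an array was left out. The count in control, 0 in the report, was 1 without dim genes and 5 with hours unlogged. It was 0 to 2 when an array was left out. Counts over all genes moved under these settings as well. At matched hours they ran from 142 (no hour block) to 2137 (robust eBayes on an intensity trend), against 1637 in the reported fit. For the slope under IL-6 plus HGF they ran from 244 (without the 24 h array) to 3095 (without the 10 h array), against 2020. In control they ran from 23 (without the 4 h array) to 1685 (hours unlogged), against 657. The count at 24 h, 9 in the report, was 3 to 9 when an array was left out. Sign changes came with an array left out: slopes under IL-6 plus HGF ranged from -0.025 to 0.44 for Ccne1, -0.00055 to 0.50 for E2f1, -0.15 to 0.85 for E2f8 and -0.066 to 0.38 for Rbl2, each lowest without 24 h. The difference of slopes ranged from -0.50 to 0.71 for Ccne2 and from -0.58 to 0.67 for E2f7, and was -0.36 and -0.21 without both 24 h arrays. No paired analysis by replicate number was possible because the labels carry none. The cause of these changes was not tested.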
